A study of Homo sapiens with 24 samples.

Results

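The 10 genes described here encode TIMELESS and its partners in the ATR-CHK1 replication checkpoint: TIMELESS, TIPIN, CLSPN, ATR, ATRIP, CHEK1, TOPBP1, RAD17, WEE1 and HUS1. They were taken by name from a table of 16591 genes, and all 10 were present. The table holds 24 libraries of polyA RNA from 4 established human cancer cell lines, BT549 and MDAMB436 from breast and OVCAR8 and COV362 from ovary. Cultures received 5 µM EPZ015666, a small-molecule inhibitor of the arginine methyltransferase PRMT5, or the DMSO vehicle alone. BT549 and OVCAR8 were sampled after 3 and after 5 days, COV362 and MDAMB436 after 5 days, and each of the 12 groups holds 2 libraries, A and B. The labels name no genetic change, and each line has 1 inhibitor at 1 dose.

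ATR is a kinase that ATRIP carries to single-stranded DNA coated with RPA at stalled replication forks. RAD17 loads a ring-shaped clamp that contains HUS1, and the clamp brings in TOPBP1, which switches ATR on. TIMELESS and TIPIN travel with the fork as a pair and, with CLSPN (claspin), help ATR to activate the kinase CHK1, the product of CHEK1; CHK1 restrains CDC25 phosphatases and WEE1 restrains the CDKs directly, so that division waits for replication. PRMT5 places symmetric dimethyl marks on arginines of histones and of many proteins that handle RNA, splicing factors among them.

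The libraries held 23.77 to 44.96 M reads assigned to genes, with a median of 27.8 M. Each member had from 228 to 8123 reads in a library, the lowest for HUS1 and the highest for TIMELESS. Values are RPKM, reads scaled by the total of the library and by gene length in kilobases, with the whole gene span as the length, so that a long gene with many reads can have a low value. A pair of libraries stood apart: 5 genes of the ribosomal RNA locus took 4.54% of reads in OVCAR8 EPZ015666 day 5 B and 1.39% in BT549 EPZ015666 day 3 A, against a median of 0.289%. The effect of the inhibitor on members in these 2 comparisons and in the average over lines is also given without them. VIM had a median of 47.9 RPKM in MDAMB436 and of 111 to 121 in the other lines. KRT18 lay between 7.52 and 10.5 RPKM in BT549 and between 44.5 and 185 in the others. KRT8 was also lowest in BT549 (median 0.0428). KRT19 did not follow them, with a median of 34.9 in COV362, 0.121 in BT549, 0.0164 in MDAMB436 and 0 in OVCAR8. Of the ovarian and Müllerian markers, MSLN and PAX8 were higher in both ovarian lines than in the breast lines. WT1 and MUC16 did not sort the lines by tissue. MSLN had medians of 18.9 RPKM in OVCAR8, 13.2 in COV362, 1.30 in BT549 and 0.458 in MDAMB436, and it moved with the inhibitor, by -2.29 ± 0.053 (log2 scale, SE) in the average over lines at day 5 (limma adjusted p = 8.27e-14). The WT1 median was higher in BT549 (0.167) and MDAMB436 (0.169) than in COV362 (0.12) and OVCAR8 (0.0446), and that of MUC16 was 0 in OVCAR8 and 0.144 in MDAMB436. The luminal breast marker FOXA1 was highest in COV362 (median 2.64) and 0.0134 in BT549. GATA3, also a luminal breast marker, was highest in BT549 (median 4.68) and lowest in the other breast line, MDAMB436 (0.0607). FOXA1 and GATA3 thus did not sort the lines by tissue. PGR, of the same kind, was highest in OVCAR8 (median 0.167). PAX8, a Müllerian marker, ran from 0.0546 to 0.095 RPKM in OVCAR8 and from 0.287 to 0.354 in COV362. It stayed at or below 0.000688 in BT549 and 0.000557 in MDAMB436. EPCAM stayed at or below 0.00251 in BT549 and 0.0741 in MDAMB436, with medians of 0.637 in OVCAR8 and 1.69 in COV362. The endothelial CDH5 reached 1.01 in COV362 and 0.008 at most elsewhere. The leukocyte markers PTPRC, CD3E and CD68 were not analysed here.

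The promoters of 4 members are shown because TIMELESS and ATR moved together across the libraries and because CLSPN and TOPBP1 were the most alike pair of members. Each sequence is the 250 bases before the first RefSeq start of the gene, on GRCh38.p14 and the minus strand, at chr12:56449427-56449676 for TIMELESS, chr3:142578734-142578983 for ATR, chr1:35769979-35770228 for CLSPN and chr3:133661942-133662191 for TOPBP1. Capitals mark matches on either strand to the E-box (CACGTG), the CCAAT box (its 5 letters as named), the GC box (GGGCGG), an ETS site (CCGGAAG) and the cores of an E2F site (one form is TTGGCGC, the other is TTCCCGC).
TIMELESS: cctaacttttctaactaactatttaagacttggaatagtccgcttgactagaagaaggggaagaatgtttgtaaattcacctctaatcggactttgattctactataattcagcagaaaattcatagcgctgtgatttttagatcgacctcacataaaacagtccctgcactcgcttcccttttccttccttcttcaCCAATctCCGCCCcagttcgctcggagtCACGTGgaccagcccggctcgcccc
ATR: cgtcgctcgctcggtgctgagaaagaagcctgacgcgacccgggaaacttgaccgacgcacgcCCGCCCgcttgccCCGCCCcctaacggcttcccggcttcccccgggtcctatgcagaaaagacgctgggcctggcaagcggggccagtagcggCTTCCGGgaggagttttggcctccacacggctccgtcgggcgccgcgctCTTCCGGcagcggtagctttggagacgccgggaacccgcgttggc
CLSPN: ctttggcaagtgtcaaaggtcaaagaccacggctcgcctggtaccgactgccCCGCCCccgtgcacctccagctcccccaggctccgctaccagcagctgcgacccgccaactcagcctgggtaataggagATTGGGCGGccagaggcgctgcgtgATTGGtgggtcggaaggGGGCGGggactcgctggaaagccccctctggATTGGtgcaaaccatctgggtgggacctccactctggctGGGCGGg
TOPBP1: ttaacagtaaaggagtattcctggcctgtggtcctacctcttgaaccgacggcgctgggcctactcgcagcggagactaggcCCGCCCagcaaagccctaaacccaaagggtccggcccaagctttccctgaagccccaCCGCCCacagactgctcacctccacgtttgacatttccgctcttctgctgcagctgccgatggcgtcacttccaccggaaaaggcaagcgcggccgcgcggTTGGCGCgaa
RefSeq promoters matched 8 of the 10 members by symbol. The TIMELESS window holds 1 CACGTG, at -25 to -20 from the start, and 6.34% of 35116 RefSeq promoter windows of that length hold this motif. No other member's windows held it. The ATR window holds 2 ETS matches, a motif in 8.52% of windows. CLSPN has 3 CCAAT matches and 4 GC boxes, motifs in 32.0% and 42.6% of windows, and the GC box at -116 shares bases with a CCAAT match. TOPBP1 holds TTGGCGC at -10 to -4, a motif in 2.56% of windows and also in a TIPIN window; TTCCCGC, in 5.52% of windows, was in none of the members' windows. The share of G and C was 45.2% for TIMELESS, 69.6% for ATR, 66.0% for CLSPN and 61.6% for TOPBP1, against a median of 58.0% over all windows. These matches describe letters only.

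TIMELESS, the fork protein after which the TIMELESS-TIPIN pair is named, was lower with EPZ015666 in all 4 lines and at both days. The gene lies on chr12:56416373-56449403 on the minus strand of GRCh38. In BT549 at day 5 its level was 2.45 and 2.51 RPKM with DMSO and 1.25 and 1.25 with the inhibitor. At day 3 in the same line it was 2.92 and 3.00 RPKM with DMSO and 1.25 and 1.23 with the inhibitor. The inhibitor libraries of BT549 thus lay at one level on both days, at 0.506 of the vehicle mean on day 5 and 0.419 on day 3. In OVCAR8 TIMELESS was 4.77 and 4.73 RPKM against 3.20 and 3.06 at day 5, and 5.48 and 5.47 against 4.25 and 4.07 at day 3. In COV362 it was 5.27 and 5.40 RPKM with DMSO and 2.95 and 3.11 with the inhibitor, and in MDAMB436 2.10 and 2.13 against 1.32 and 1.33. In each of the 6 comparisons both inhibitor libraries lay below both vehicle libraries. With 2 libraries per group, such separation can occur without an effect. Its share over all genes was not counted, for TIMELESS or for the members and listed genes below.

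On the scale of log2(RPKM + 0.1), limma put the TIMELESS change at -0.93 ± 0.044 (SE) in BT549 at day 5 (adjusted p = 7.09e-05) and at -1.19 ± 0.044 at day 3 (adjusted p = 0.000265). Of the 8259 genes tested in BT549, 20.9% were called lower at day 5 and 9.84% at day 3 at an adjusted p under 0.05. OVCAR8 gave -0.59 ± 0.036 at day 5 (adjusted p = 0.000143; 30.6% of 8476 genes lower) and -0.39 ± 0.036 at day 3 (adjusted p = 0.00107; 19% lower). COV362 gave -0.80 ± 0.039 (adjusted p = 0.000585; 30.5% of 8402 genes lower) and MDAMB436 -0.63 ± 0.041 (adjusted p = 0.00547; 20% of 8260 genes lower). The change kept its direction and its call in every alternative that was run for these 6 comparisons, the omission of any 1 library included, with adjusted p between 1.19e-11 and 0.0306. Without the library high in ribosomal RNA, the change was -1.20 in BT549 at day 3 and -0.55 in OVCAR8 at day 5. Nothing in the labels tells if the 2 replicates of a group were grown separately. The p-values rest on the spread between the 2 libraries of a group, pooled over the groups in a fit and moderated across genes. They measure no more than that spread, which may be technical. In such bulk samples, fewer cells that express a gene and less RNA per cell cannot be told apart.

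**Figure D1:**
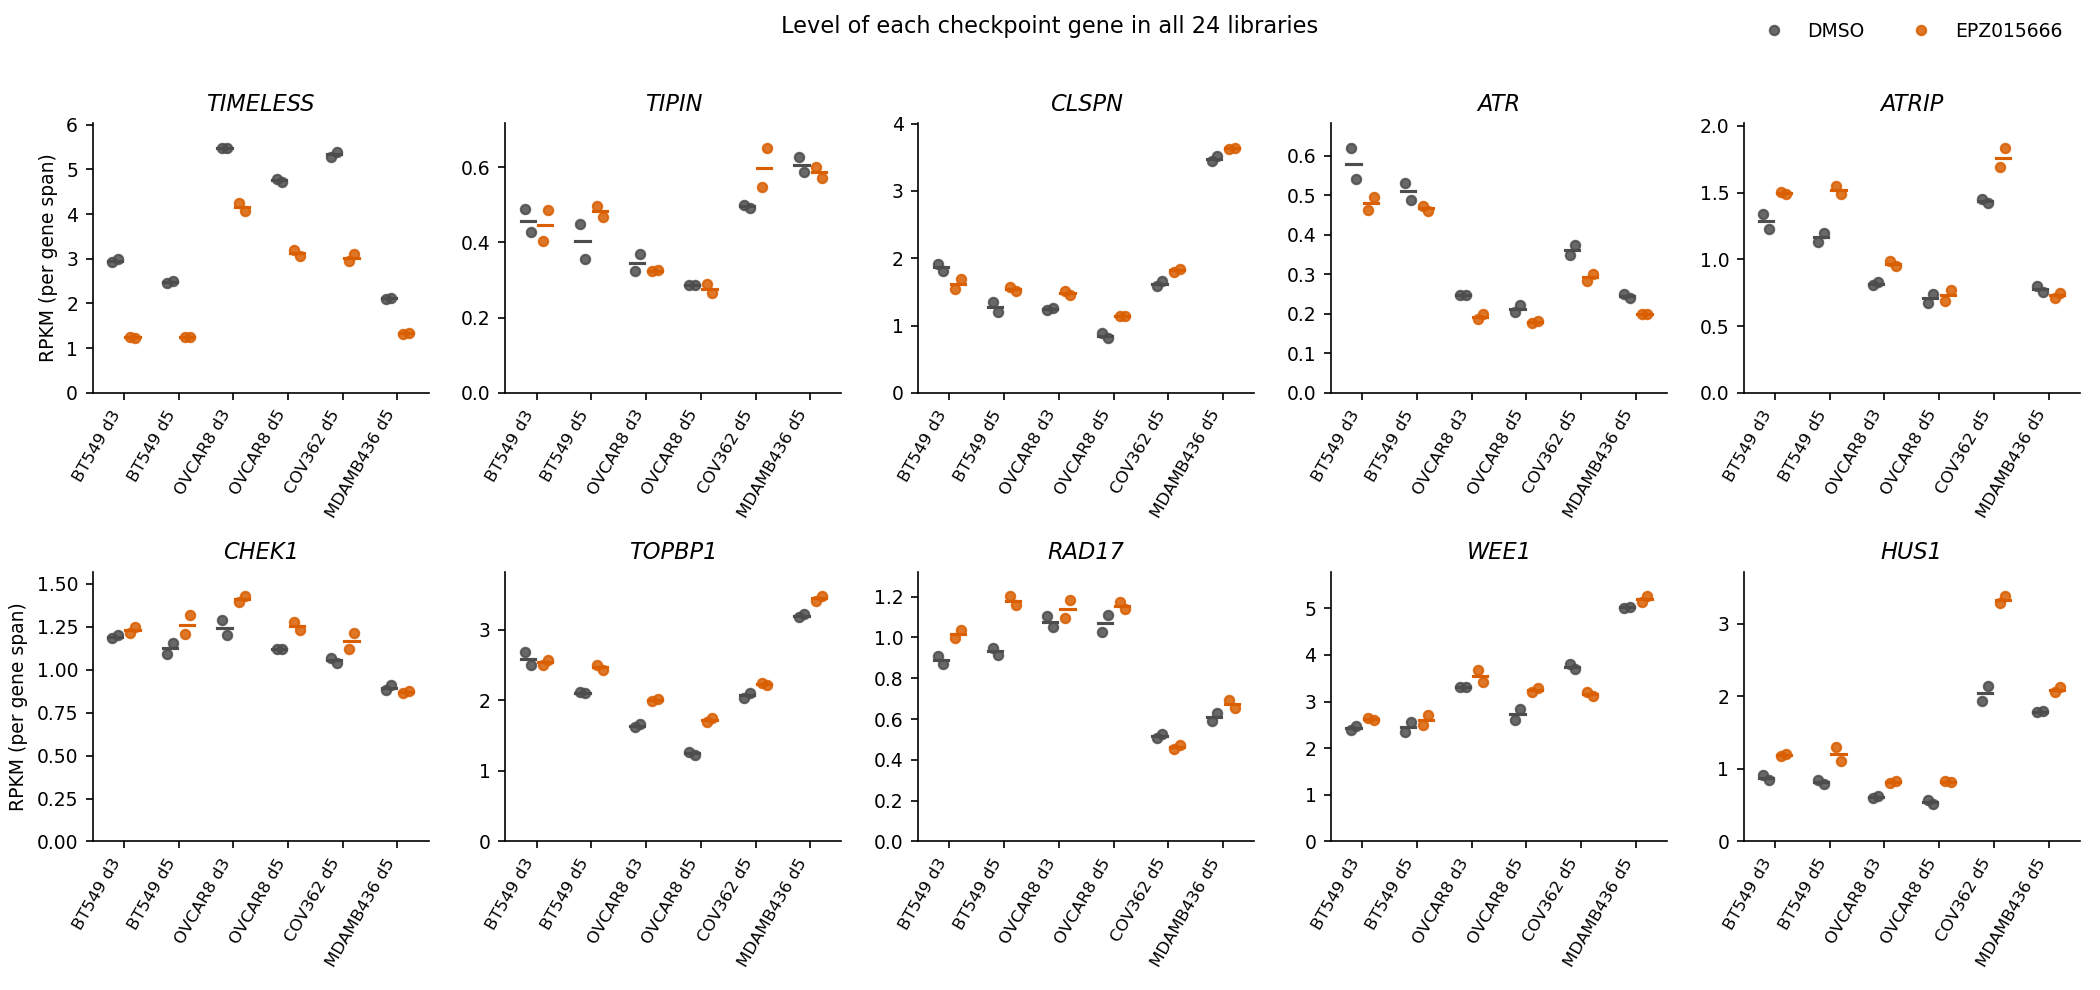
Level of each of the 10 genes in all 24 libraries, in RPKM per gene span, by line and day (d3, day 3; d5, day 5). Points are libraries, short bars are means of 2, gray is DMSO and orange is EPZ015666. TIMELESS and ATR lie lower and HUS1 higher with the inhibitor in 6 of 6 comparisons, a count not made over all genes.

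TIPIN, the partner that binds TIMELESS, did not follow it. Its level was 0.450 and 0.356 RPKM in BT549 with DMSO at day 5 and 0.496 and 0.469 with the inhibitor. In OVCAR8 at day 5 it was 0.288 and 0.287 RPKM with DMSO and 0.288 and 0.266 with the inhibitor. In COV362 it was 0.50 and 0.493 RPKM with DMSO and 0.547 and 0.652 with the inhibitor, and in MDAMB436 0.627 and 0.586 against 0.601 and 0.572. The groups overlapped in 4 of 6 comparisons and the inhibitor libraries lay above in the other 2, with ratios of means between 0.939 and 1.21. TIPIN passed the level for testing, a mean RPKM of 0.5 in the line, only in COV362 (0.23 ± 0.091, limma adjusted p = 0.0924) and MDAMB436 (-0.04 ± 0.068, adjusted p = 0.655). Without COV362 EPZ015666 day 5 A the COV362 change was 0.34 with an adjusted p of 0.0349. On reads recovered from the RPKM values, limma-voom put it at 0.27 ± 0.075 in COV362 (adjusted p = 0.00398; 34.4% of 12483 genes called higher) and did not call TIPIN in the other 5 comparisons.

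CLSPN, the adaptor that holds CHK1 near ATR, was higher at day 5 in 3 of the 4 lines. In OVCAR8 it was 0.883 and 0.817 RPKM with DMSO and 1.14 and 1.14 with the inhibitor at day 5, and 1.23 and 1.25 against 1.51 and 1.45 at day 3. In BT549 it was 1.35 and 1.20 RPKM against 1.57 and 1.51 at day 5, while at day 3 the order was the opposite, with 1.92 and 1.80 against 1.54 and 1.69. COV362 had 1.58 and 1.66 RPKM against 1.79 and 1.84, and in MDAMB436 3.44 and 3.52 against 3.62 and 3.64. No pair of groups overlapped: the inhibitor libraries lay above in 5 comparisons and below in BT549 at day 3. CLSPN rose by 0.38 ± 0.047 in OVCAR8 at day 5 (limma adjusted p = 0.00132; 22% of genes called higher). It rose by 0.24 ± 0.047 there at day 3 (adjusted p = 0.0129; 14.5% of genes higher). Without the day 5 library high in ribosomal RNA the day 5 change was 0.38 (adjusted p = 0.0102).

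In BT549 at day 5 CLSPN rose by 0.26 ± 0.077 (limma adjusted p = 0.0372; 17% of genes called higher), and in COV362 by 0.16 ± 0.042 (adjusted p = 0.0317; 35.5% higher). The changes of -0.20 ± 0.077 in BT549 at day 3 (adjusted p = 0.123) and 0.06 ± 0.039 in MDAMB436 (adjusted p = 0.28) did not pass. Without the BT549 day 3 library high in ribosomal RNA the first of these was -0.13 (adjusted p = 0.348). Limma-voom called the lower level in BT549 at day 3 (-0.21, adjusted p = 0.0428). With 1 library left out, the BT549 day 5 call was lost without DMSO B, EPZ015666 A or EPZ015666 B (adjusted p up to 0.192), and the COV362 call without any 1 of its 4 libraries (up to 0.136). The OVCAR8 day 3 call was lost without DMSO A, DMSO B or EPZ015666 A (up to 0.0712).

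ATR, the kinase at the head of the checkpoint, lay lower with the inhibitor in all 6 comparisons, by less than TIMELESS. In BT549 it was 0.532 and 0.490 RPKM with DMSO and 0.474 and 0.461 with the inhibitor at day 5, and 0.621 and 0.540 against 0.463 and 0.496 at day 3. In OVCAR8 it was 0.204 and 0.223 RPKM against 0.177 and 0.182 at day 5, and 0.248 and 0.247 against 0.187 and 0.199 at day 3. COV362 had 0.350 and 0.376 RPKM against 0.284 and 0.302, and in MDAMB436 0.251 and 0.240 against 0.199 and 0.200. The groups did not overlap, and the ratios of means ran from 0.780 to 0.915. ATR spans 129592 bases, so these low RPKM values stand for 602 to 2217 reads.

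At the level set for testing, ATR entered the limma fit only in BT549, where neither change passed: -0.11 ± 0.085 at day 5 (adjusted p = 0.37) and -0.23 ± 0.085 at day 3 (adjusted p = 0.109), or -0.19 without the library high in ribosomal RNA (adjusted p = 0.274). Without the filter on low values, limma also tested ATR in all lines. The only member then called lower was TIMELESS in BT549 at both days, in OVCAR8 at day 5 and in MDAMB436. In COV362 the 2 called lower were TIMELESS and WEE1, so ATR was not called in any of these. In OVCAR8 at day 3 and in the average over lines 2 members were called lower, TIMELESS and ATR. Limma-voom on recovered reads tested ATR in all lines too. ATR fell by 0.26 ± 0.070 in OVCAR8 at day 5 (adjusted p = 0.00509; 28.4% of 12440 genes called lower) and by 0.36 ± 0.068 at day 3 (adjusted p = 0.000523; 20.2% lower). The same fit gave -0.31 ± 0.056 in COV362 (adjusted p = 9.72e-05; 36.2% of genes lower) and -0.30 ± 0.073 in MDAMB436 (adjusted p = 0.00127; 25.2% of 12040 genes lower). In BT549 it gave -0.27 ± 0.076 at day 3 (adjusted p = 0.0139; 13.1% of 11749 genes lower), and -0.13 ± 0.078 at day 5, which did not pass (adjusted p = 0.199). Averaged over the 4 lines at day 5, the limma-voom change of ATR was -0.25 ± 0.037 (adjusted p = 1.41e-06; 34.9% of 10738 genes lower).

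ATRIP, which binds ATR and takes it to RPA-coated DNA, did not share the direction of ATR. In BT549 ATRIP was 1.13 and 1.20 RPKM with DMSO and 1.55 and 1.49 with the inhibitor at day 5. In COV362 it was 1.45 and 1.42 RPKM against 1.69 and 1.84, whereas in MDAMB436 it was 0.797 and 0.753 against 0.710 and 0.749. The inhibitor libraries lay above in 4 comparisons, below in MDAMB436, and overlapped the vehicle libraries in OVCAR8 at day 5. ATRIP rose by 0.36 ± 0.061 in BT549 at day 5 (limma adjusted p = 0.00534) and by 0.28 ± 0.053 in COV362 (adjusted p = 0.0125). The COV362 call was lost without DMSO A (adjusted p = 0.0526) or DMSO B (0.0633).

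The day 3 changes of ATRIP, 0.21 ± 0.061 in BT549 (limma adjusted p = 0.0607) and 0.22 ± 0.068 in OVCAR8 (adjusted p = 0.0531), lay just outside the threshold. The BT549 change passed with 1 fit over all 24 libraries (adjusted p = 0.0154), with limma-voom (0.0491) and without BT549 DMSO day 3 A (0.27, adjusted p = 0.0485). Without EPZ015666 A, the library high in ribosomal RNA, it was 0.20 (adjusted p = 0.149). The OVCAR8 change passed with a pseudocount of 1 (adjusted p = 0.0421), median-of-ratios scaling (0.0484), only the libraries compared (0.0466), 1 fit over all 24 libraries (0.0111) and limma-voom (0.0278). It also passed without OVCAR8 EPZ015666 day 5 A or B (0.0487 and 0.0491).

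**Figure D2:**
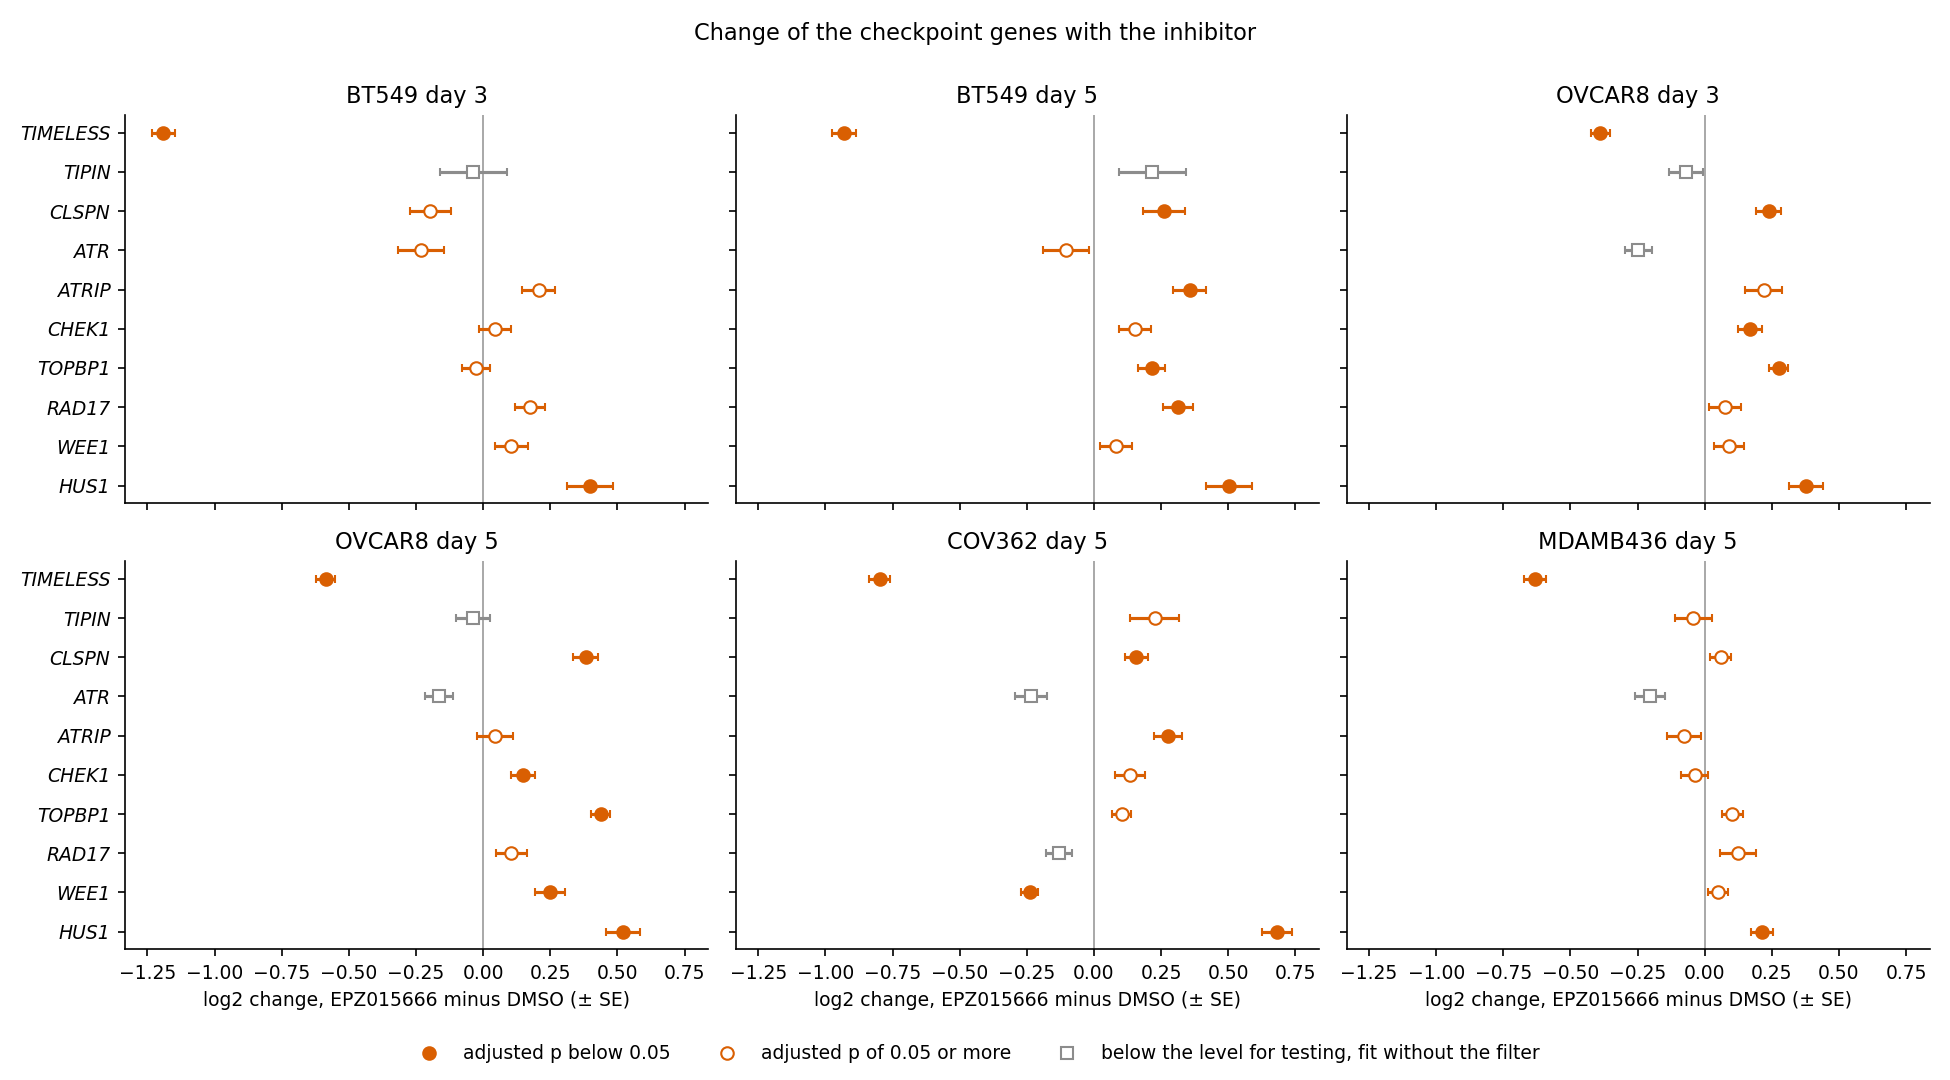
Log2 change with EPZ015666 against DMSO (x axis, ± SE) for each gene in the 6 comparisons. Filled circles passed an adjusted p of 0.05, open circles did not, and gray squares are genes below the level for testing, from the fit without that filter; TIMELESS is at the left and HUS1 at or right of 0.21 in every panel.

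HUS1, a subunit of the clamp that RAD17 loads, was higher with the inhibitor in every comparison. In COV362 its level was 1.94 and 2.14 RPKM with DMSO and 3.29 and 3.38 with the inhibitor, a ratio of means of 1.63. In BT549 it was 0.848 and 0.788 RPKM against 1.30 and 1.11 at day 5, and 0.916 and 0.845 against 1.18 and 1.20 at day 3. In OVCAR8 it was 0.578 and 0.512 RPKM against 0.837 and 0.814 at day 5, and 0.599 and 0.622 against 0.805 and 0.840 at day 3. MDAMB436 had the smallest ratio, 1.17, with 1.79 and 1.79 RPKM against 2.06 and 2.12, and no pair of groups overlapped in any line.

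HUS1 rose by 0.68 ± 0.058 in COV362 (limma adjusted p = 0.00152), by 0.52 ± 0.063 in OVCAR8 at day 5 (adjusted p = 0.00123; 0.54 without the library high in ribosomal RNA, adjusted p = 0.00853) and by 0.38 ± 0.063 there at day 3 (adjusted p = 0.00727). In BT549 it rose by 0.50 ± 0.086 at day 5 (adjusted p = 0.00537) and by 0.40 ± 0.086 at day 3 (adjusted p = 0.0252; 8.31% of genes called higher). In MDAMB436 it rose by 0.21 ± 0.042 (adjusted p = 0.0235; 16.7% of genes higher). The BT549 day 3 call was lost without DMSO B, EPZ015666 A (the library high in ribosomal RNA; 0.41, adjusted p = 0.0685) or EPZ015666 B, and the MDAMB436 call without any 1 of its 4 libraries (adjusted p up to 0.143).

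TOPBP1, the activator of ATR, was called higher by limma in OVCAR8 on both days and in BT549 at day 5. In OVCAR8 it was 1.27 and 1.23 RPKM with DMSO and 1.69 and 1.75 with the inhibitor at day 5, and 1.62 and 1.66 against 1.99 and 2.02 at day 3. In BT549 it was 2.12 and 2.10 RPKM against 2.50 and 2.43 at day 5, and 2.68 and 2.49 against 2.50 and 2.57 at day 3, where the groups overlapped. COV362 had 2.03 and 2.11 RPKM against 2.24 and 2.21, and in MDAMB436 3.18 and 3.22 against 3.41 and 3.47. Those last groups did not overlap, although their changes of 0.10 ± 0.036 (limma adjusted p = 0.0634) and 0.10 ± 0.039 (adjusted p = 0.104) did not pass. Both passed with 1 limma fit over all 24 libraries (adjusted p = 0.0181 and 0.0259). Limma-voom called both, at 0.11 in COV362 (adjusted p = 0.0135, 4298 of 12483 genes higher) and 0.11 in MDAMB436 (adjusted p = 0.0478, 2790 of 12040 higher). TOPBP1 rose by 0.44 ± 0.035 in OVCAR8 at day 5 (limma adjusted p = 0.000307; 0.42 without the library high in ribosomal RNA, adjusted p = 0.00326) and by 0.28 ± 0.035 at day 3 (adjusted p = 0.00298). It rose by 0.21 ± 0.051 in BT549 at day 5 (adjusted p = 0.0182), a call lost without any 1 of the 4 libraries compared (adjusted p up to 0.114).

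RAD17, the clamp loader subunit, was 0.949 and 0.914 RPKM in BT549 with DMSO at day 5 and 1.20 and 1.16 with the inhibitor. It rose there by 0.31 ± 0.056 (limma adjusted p = 0.00634), a call lost without EPZ015666 A (adjusted p = 0.0551). In COV362 RAD17 was 0.505 and 0.528 RPKM against 0.452 and 0.474, the only comparison with the inhibitor libraries below. The gene was under the level for testing there, and limma-voom gave -0.16 ± 0.068 (adjusted p = 0.0436). The start of the RAD17 span overlaps AK6 on the opposite strand, and the sources used here do not say whether reads were counted by strand.

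CHEK1, which encodes CHK1, moved little. Its level was 1.12 and 1.12 RPKM in OVCAR8 with DMSO at day 5 and 1.28 and 1.23 with the inhibitor, and 1.29 and 1.20 against 1.39 and 1.43 at day 3. Over the 6 comparisons its ratio of means ran from 0.971 to 1.13, and the inhibitor libraries lay above in 5 and below in MDAMB436. CHEK1 rose by 0.15 ± 0.044 in OVCAR8 at day 5 (limma adjusted p = 0.0322) and by 0.17 ± 0.044 at day 3 (adjusted p = 0.0329). The day 5 call was lost without any 1 of the 4 libraries compared (adjusted p up to 0.144), the library high in ribosomal RNA among them (0.0654), and the day 3 call without any 1 OVCAR8 library other than DMSO day 3 A (up to 0.151). In COV362 the CHEK1 change of 0.13 did not pass by limma. It passed with 1 limma fit over all 24 libraries (adjusted p = 0.0261) and with limma-voom (0.15, adjusted p = 0.0137, 34.4% of 12483 genes higher). The change of 0.15 in BT549 at day 5 passed only with 1 limma fit over all 24 libraries (adjusted p = 0.016). The CHEK1 span shares bases with STT3A on the same strand and with ACRV1, so reads there cannot be assigned to 1 gene by position alone.

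WEE1, the kinase that inhibits CDK1, rose in one line and fell in another by limma. In OVCAR8 at day 5 it was 2.59 and 2.85 RPKM with DMSO and 3.20 and 3.29 with the inhibitor. In COV362 it was 3.80 and 3.70 RPKM with DMSO and 3.20 and 3.13 with the inhibitor. WEE1 rose by 0.25 ± 0.056 in OVCAR8 at day 5 (limma adjusted p = 0.0127), a call lost without DMSO A (0.0513) or without EPZ015666 B, the library high in ribosomal RNA (0.23, adjusted p = 0.0636). It fell by 0.24 ± 0.032 in COV362 (adjusted p = 0.00483) and did not pass in the other 4 comparisons.

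Counted by comparison, the members called higher and lower by limma were 5 and 1 of 9 tested in BT549 at day 5, against 17% and 20.9% of all genes. At day 3 they were 1 and 1 of 9, against 8.31% and 9.84%. In OVCAR8 they were 5 and 1 of 8 at day 5, against 22% and 30.6%, and 4 and 1 of 8 at day 3, against 14.5% and 19%. They were 3 and 2 of 8 in COV362, against 35.5% and 30.5%, and 1 and 1 of 9 in MDAMB436, against 16.7% and 20%, both near the share of all genes. The median change of the tested members was 0.21 in BT549 at day 5 and 0.20 in OVCAR8 at day 5, while that of all genes was -0.01 and -0.03. In COV362 the medians were 0.15 for the members and 0.03 for all genes, and in MDAMB436 0.05 and -0.01. TIMELESS accounts for the single lower call in every comparison but COV362, where WEE1 is the other.

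Averaged over the 4 lines at day 5, limma called 5 of 7 tested members higher and 1 lower, against 35.6% and 35.4% of 6441 genes. TIMELESS fell by 0.74 ± 0.017 (adjusted p = 8.27e-14). HUS1 rose by 0.48 ± 0.034 (adjusted p = 9.15e-09), CLSPN by 0.22 ± 0.028 (6.75e-06), TOPBP1 by 0.21 ± 0.018 (5.88e-08), ATRIP by 0.15 ± 0.030 (0.000403) and CHEK1 by 0.10 ± 0.024 (0.00201). WEE1, at 0.03 ± 0.025 (adjusted p = 0.232), did not pass. Without the OVCAR8 library high in ribosomal RNA these 6 calls held, with TIMELESS at -0.73 and HUS1 at 0.48. The median change was 0.15 over the 7 members and 0.01 over all genes. TIPIN, ATR and RAD17 were under the level for testing in at least 1 line. Limma-voom, which tested all 10, put RAD17 at 0.11 ± 0.032 (adjusted p = 0.00397; 35.3% of genes called higher) and TIPIN at 0.11 ± 0.052 (adjusted p = 0.0643).

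The size of the day 5 effect differed between lines for 6 of the 7 tested members by limma's moderated F test, which called 72.3% of all genes. For TIMELESS the fall ran from 0.59 in OVCAR8 to 0.93 in BT549 (F = 21.5, adjusted p = 6.98e-05). For HUS1 the rise ran from 0.21 in MDAMB436 to 0.68 in COV362 (F = 8.11, adjusted p = 0.00419). For TOPBP1 it ran from 0.10 to 0.44, the highest in OVCAR8 (F = 18.9, adjusted p = 0.000121), and for CLSPN from 0.06 to 0.38, again highest there (F = 6.02, adjusted p = 0.0119). WEE1 (F = 15.8, adjusted p = 0.00027) ran from -0.24 in COV362 to 0.25 in OVCAR8. ATRIP (F = 11.2, adjusted p = 0.00119) ran from -0.08 in MDAMB436, which did not pass (adjusted p between 0.277 and 0.80 over its alternatives), to 0.36 in BT549. The difference for CHEK1 did not pass (F = 3.54, adjusted p = 0.0566), and it passed without BT549 DMSO day 5 B, BT549 EPZ015666 day 5 A or COV362 EPZ015666 day 5 A (adjusted p down to 0.026).

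Without the inhibitor, several members were lower at day 5 than at day 3. In BT549 with DMSO, limma called 3 of 9 tested members lower and none higher, against 5.25% of genes called lower: CLSPN fell by 0.52 ± 0.077 (adjusted p = 0.0125), TOPBP1 by 0.28 ± 0.051 (0.0203) and TIMELESS by 0.25 ± 0.044 (0.0196). In OVCAR8 with DMSO, 4 of 8 were called lower, against 14.9% of genes: CLSPN fell by 0.50 ± 0.047 (adjusted p = 0.00247), TOPBP1 by 0.37 ± 0.035 (0.00247), WEE1 by 0.28 ± 0.056 (0.0156) and TIMELESS by 0.20 ± 0.036 (0.011). Of these, both OVCAR8 calls on CLSPN and TOPBP1 held without each library. None of the 3 BT549 calls held without BT549 DMSO day 5 A or B (adjusted p from 0.0501 to 0.124). That of TIMELESS was also lost without either BT549 EPZ015666 day 5 library (0.0514), and those of CLSPN and TOPBP1 without DMSO day 3 A (0.0521 and 0.0566). In OVCAR8 the TIMELESS and WEE1 calls were lost without DMSO day 3 A or B (up to 0.0744), and WEE1 also without DMSO day 5 A (0.0607).

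Inhibitor cultures of day 5 and day 3 were compared within each line, and the course was not tested between lines. In OVCAR8 limma called 4 of 8 members lower at day 5 than at day 3, against 8.39% of genes: TIMELESS fell by 0.40 ± 0.036 (adjusted p = 0.00561), ATRIP by 0.36 ± 0.068 (0.025), CLSPN by 0.35 ± 0.047 (0.0112) and TOPBP1 by 0.21 ± 0.035 (0.0187). The TIMELESS call held without each library in turn. The other 3 were lost without EPZ015666 day 5 A, day 5 B or day 3 A. ATRIP and TOPBP1 were also lost without EPZ015666 day 3 B, and ATRIP without either DMSO day 3 library (adjusted p up to 0.0987 over these omissions). In BT549 limma called no member between the inhibitor cultures of day 3 and day 5, with 1 at an unadjusted p under 0.05, none by limma-voom, and 0.666% of all genes called in either direction.

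Tests of the change in the effect between days called no member by limma. In BT549 3 members had an unadjusted p under 0.05 and 4.14% of genes were called; the change was 0.46 ± 0.108 for CLSPN (adjusted p = 0.0711) and 0.26 ± 0.063 for TIMELESS (adjusted p = 0.0739). In OVCAR8 2 members had an unadjusted p under 0.05 and 4.59% of genes were called; TIMELESS was at -0.20 ± 0.051 (adjusted p = 0.0772). Limma-voom called 1 of 10 members in each line, CLSPN in BT549 (0.48, adjusted p = 0.00613) and TIMELESS in OVCAR8 (-0.20, adjusted p = 0.0246). That fit called more of all genes: 456 positive and 780 negative of 11749 in BT549, and 1015 and 927 of 12440 in OVCAR8. The share of called genes that were positive in OVCAR8 was 38% as fitted and 53.7% after median-of-ratios scaling.

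**Figure D3:**
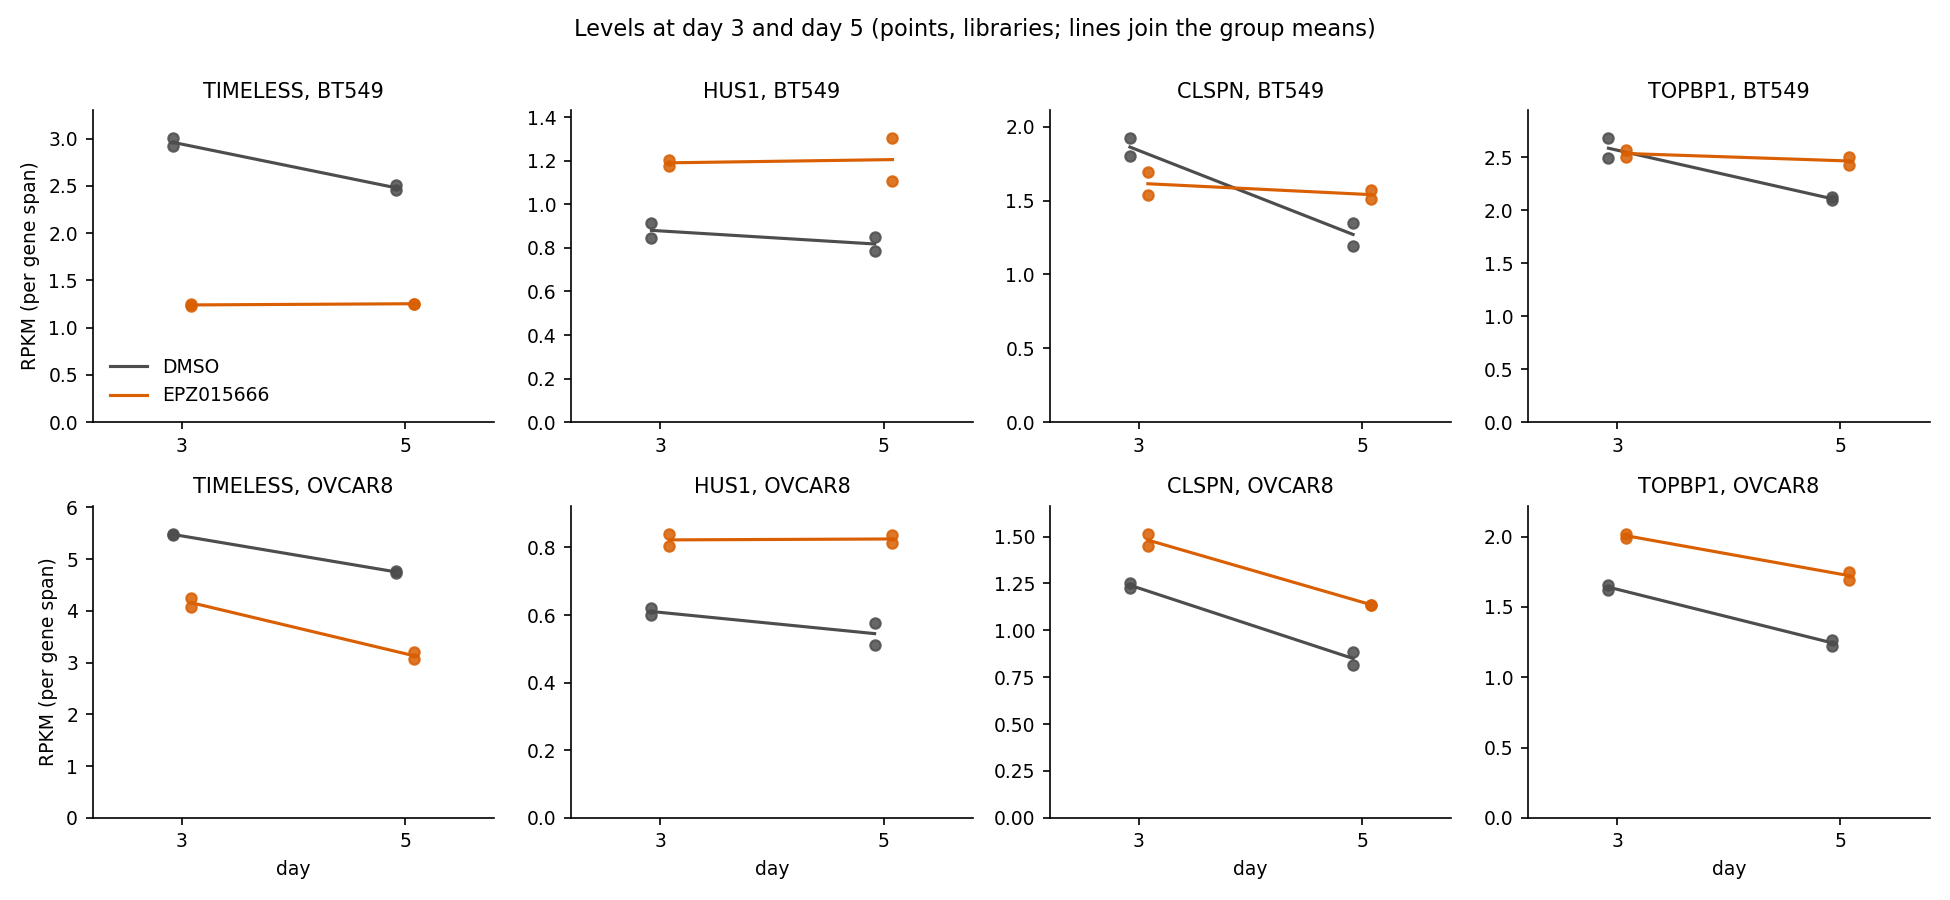
Levels of TIMELESS, HUS1, CLSPN and TOPBP1 (y axis, RPKM per gene span) at day 3 and day 5 (x axis) in BT549 and OVCAR8. Points are libraries and lines join means of 2; CLSPN and TOPBP1 with DMSO are lower at day 5 in both lines, and TIMELESS with EPZ015666 is near 1.25 RPKM on both days in BT549.

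Set against day 3 vehicle cultures in place of day 5 ones, the inhibitor libraries of day 5 had a different order for some members. CLSPN at day 5 with the inhibitor was at 0.827 of the DMSO day 3 mean in BT549 and at 0.916 in OVCAR8, below it in both lines. TOPBP1 was at 0.953 in BT549, where the groups overlapped, and at 1.05 in OVCAR8. TIMELESS stayed below (0.423 and 0.572) and HUS1 above (1.37 and 1.35). These values mix treatment and time and were not tested.

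To compare levels between genes, RPKM were restated per kilobase of exon. The sources used here do not say whether reads in introns were counted, which could alter the order of the genes. In DMSO at day 5 TIMELESS had the highest level of the 10 in OVCAR8 (27.0 ± 0.19, SD, n = 2) and in COV362 (30.3 ± 0.52). TOPBP1 was highest in BT549 (18.5 ± 0.17), above TIMELESS at 14.1 ± 0.22. CLSPN was highest in MDAMB436 (32.0 ± 0.55), above TOPBP1 at 28.1 ± 0.22 and TIMELESS at 12.0 ± 0.12. ATR was lowest in COV362 (3.76 ± 0.19) and in MDAMB436 (2.55 ± 0.086), and among the lowest in OVCAR8 (2.21 ± 0.14). In BT549 ATR (5.30 ± 0.31) lay above ATRIP (4.49 ± 0.19), and it and WEE1 (5.25 ± 0.30) did not differ beyond their spread. HUS1 was lowest in BT549 (3.24 ± 0.17) and in OVCAR8 (2.16 ± 0.18), within the spread of ATR in the latter. Levels in DMSO at day 5 differed between lines for 7 of 7 tested members by limma's F test, which called 97.8% of all genes.

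Across the 24 libraries, with the mean of the line taken out, ATR was the member most like TIMELESS (Pearson's r = 0.84) and HUS1 the most opposed (r = -0.85). TIPIN had r = -0.13 with TIMELESS and CLSPN r = -0.09. CLSPN and TOPBP1 gave the highest value among the members (r = 0.93), and CHEK1 followed ATRIP (r = 0.80). These values describe 24 libraries that share lines, days and treatment, so they carry the treatment difference itself. Among 6440 other genes tested in all lines, those most like TIMELESS by the same measure included IPO9 (r = 0.957), B4GALNT1 (0.952), AP003392.4 (0.950) and RNASEH2C (0.941). IPO9 is an importin and RNASEH2C a subunit of an RNase that cuts RNA in RNA-DNA hybrids. The ratio of means with the inhibitor ran from 0.513 to 0.714 for RNASEH2C over the 6 comparisons.

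**Figure D4:**
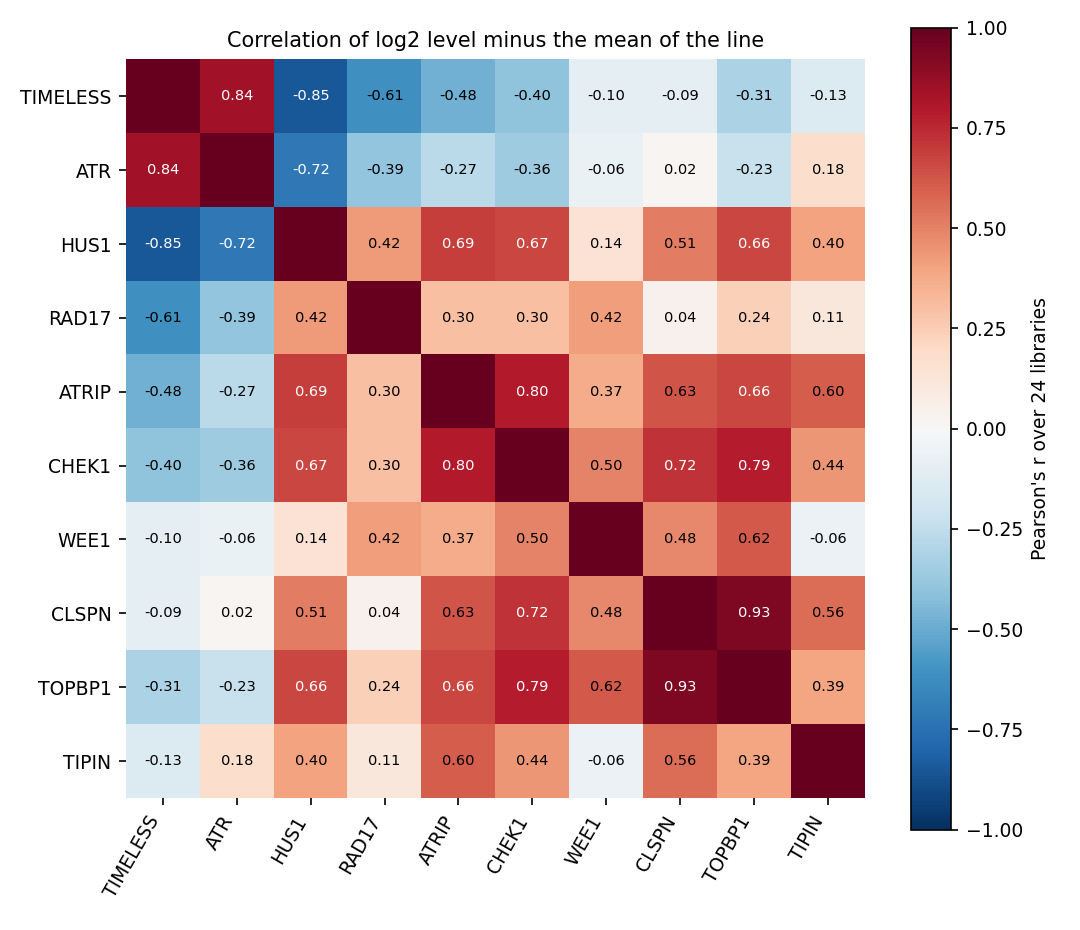
Pearson's r between members over 24 libraries, of log2(RPKM + 0.1) minus the mean of the line. Red is positive and blue negative; TIMELESS pairs with ATR (0.84) and opposes HUS1 (-0.85), and CLSPN pairs with TOPBP1 (0.93).

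The other genes of the pathway were taken from 6 lists and changed in both directions in the average over the 4 lines at day 5, where 35.6% of all genes were called higher and 35.4% lower. The counts of the lists are small and are to be read against those shares. Of the clamp, clamp loader and RPA genes, 3 of 7 tested rose and 2 fell, with a median change of -0.02 against 0.01 for all genes. RFC5 and RFC4, loader subunits, fell by 0.23 ± 0.025 (limma adjusted p = 8.62e-07) and by 0.23 ± 0.039 (0.000101), while RPA2, of the single-strand binding complex, rose by 0.17 ± 0.029 (7.48e-05) but fell by 0.19 ± 0.052 in OVCAR8 at day 5 (adjusted p = 0.0243). That call was lost without DMSO A (adjusted p = 0.112), EPZ015666 A (0.0586) or EPZ015666 B, the library high in ribosomal RNA (-0.17, adjusted p = 0.109). In MDAMB436 RFC4 fell by 0.65 ± 0.050 (adjusted p = 0.00555), and in OVCAR8 at day 5 RFC5 fell by 0.33 ± 0.044 (adjusted p = 0.00182). Of the CDC25 phosphatases, CDKs and cyclins, 2 of 7 rose and 3 fell, with a median of -0.05. CDC25A, which CHK1 targets for destruction, rose by 0.32 ± 0.031 (adjusted p = 3.49e-07), and CDC25B fell by 0.29 ± 0.020 (7.75e-09) and CCNA2 by 0.15 ± 0.018 (2.50e-06). In BT549 at day 5 CCNA2 rose by 0.27 ± 0.047 (adjusted p = 0.00601). PKMYT1, a WEE1-related kinase, fell by 0.39 ± 0.034 in OVCAR8 at day 5 (adjusted p = 0.000409), where CDC25B fell by 0.48 ± 0.028 (0.000129).

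Of the fork protection and remodelling genes, 4 of 7 rose and 3 fell, with a median of 0.08. DONSON, a replisome factor, was 0.745 and 0.790 RPKM in COV362 with DMSO and 0.608 and 0.573 with the inhibitor, and its groups did not overlap in any of the 6 comparisons. It fell by 0.34 ± 0.029 in the average of the lines (limma adjusted p = 5.81e-08), with ratios of means from 0.716 to 0.823. HLTF, a fork remodeller, rose by 0.39 ± 0.035 (adjusted p = 9.06e-08), with ratios from 1.15 to 1.38, and its groups did not overlap either. DONSON and HLTF each passed in 6 of 6 comparisons. CHTF8 fell by 0.19 ± 0.024 (adjusted p = 4.26e-06), and WDHD1 fell by 0.39 ± 0.038 in OVCAR8 at day 3 (adjusted p = 0.00123).

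Of the ATM-CHK2 arm, which answers double-strand breaks, 2 of 6 rose and 2 fell, with a median of -0.02. MDC1, a mediator at breaks, rose by 0.30 ± 0.029 (limma adjusted p = 2.60e-07), and by 0.37 ± 0.034 in OVCAR8 at day 5 (adjusted p = 0.000446). H2AFX, the histone variant phosphorylated at breaks, fell by 0.37 ± 0.044 (2.48e-06), and by 0.31 ± 0.032 in COV362 alone (0.00241), and TP53BP1 fell by 0.11 ± 0.019 (0.000142) but rose by 0.18 in OVCAR8 at day 5 (0.0166). The OVCAR8 call was lost without DMSO B (adjusted p = 0.0651) or EPZ015666 A (0.09) and with only the libraries compared (0.0597), and was 0.21 without the library high in ribosomal RNA (0.0316). The clock list was included because TIMELESS is named after a fly clock gene. In it 1 of 4 rose and 2 fell, with a median of -0.04: DBP fell by 0.94 ± 0.073 (adjusted p = 2.09e-08), NR1D1 rose by 0.51 ± 0.049 (2.37e-07) and PER1 fell by 0.13 ± 0.036 (0.00452). PER1 rose by 0.46 ± 0.039 in COV362 (adjusted p = 0.00159), and NR1D1 was at -0.15 ± 0.072 in OVCAR8 at day 5 (adjusted p = 0.117). In OVCAR8 at day 5 DBP fell by 1.10 ± 0.095 (adjusted p = 0.000379) and CRY1, a clock repressor, by 0.29 ± 0.034 (0.00109).

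Of the S phase genes, whose RNA is high in replicating cells, 3 of 14 rose and 6 fell (35.6% and 35.4% of all genes), with a median change of -0.05 against 0.01 for all genes. MCM7 fell by 0.28 ± 0.019 (limma adjusted p = 4.13e-09) and MCM4 by 0.25 ± 0.016 (3.60e-09), both subunits of the replicative helicase, and CDC6, which loads it, rose by 0.16 ± 0.020 (3.33e-06). In OVCAR8 at day 5 MCM7 fell by 0.47 ± 0.027 (adjusted p = 0.000114), and in BT549 at day 3 MCM4 fell by 0.37 ± 0.042 (0.0036) and CDC6 by 0.36 ± 0.045 (0.0045). Without the BT549 day 3 library high in ribosomal RNA, MCM4 was at -0.34 and CDC6 at -0.34, and both calls held. Without the OVCAR8 day 5 one, MCM7 was at -0.45, RFC5 at -0.30, CDC25B at -0.48, PKMYT1 at -0.38, MDC1 at 0.38, DBP at -1.09 and CRY1 at -0.30, and these calls held. These changes accompanied the fall of TIMELESS, and their part in it was not tested. RHNO1, CDK2, ZRANB3 and RAD50, also on the lists, had no entry under these symbols in the table of genes and were not analysed here.

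**Figure D5:**
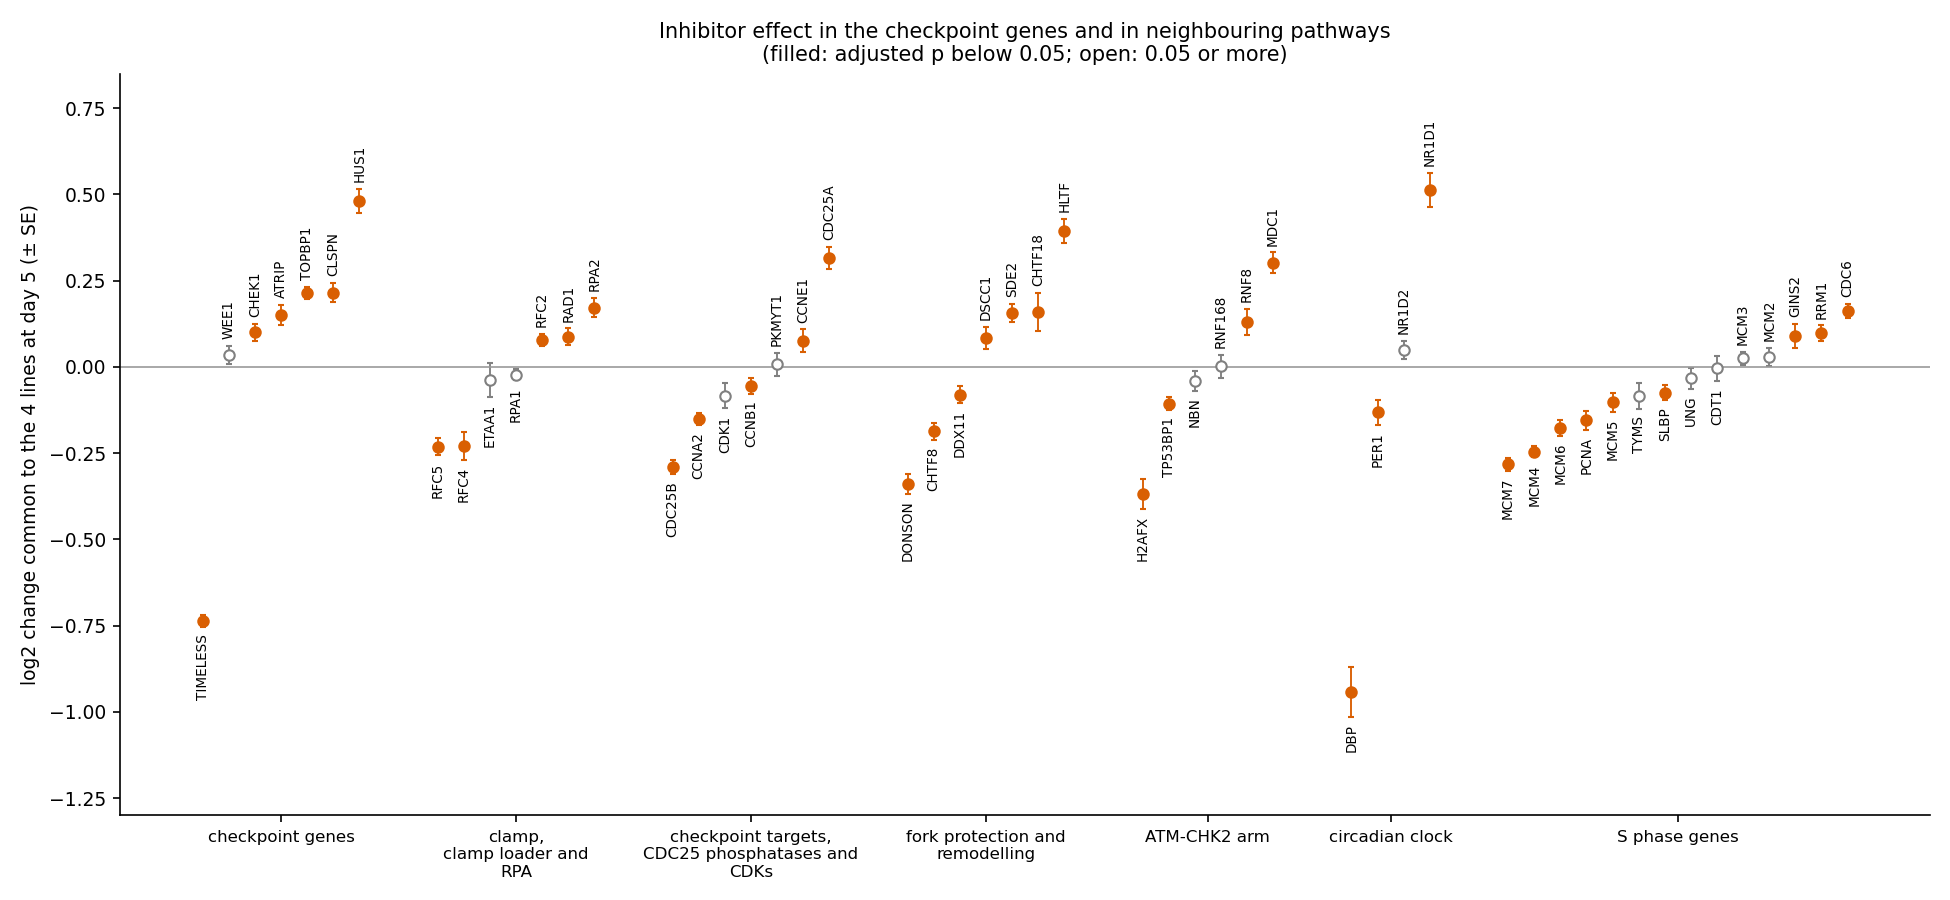
Log2 change common to the 4 lines at day 5 (y axis, ± SE) for the tested checkpoint genes and for the tested genes of 6 further lists. Filled points passed an adjusted p of 0.05; every list has genes above and below 0, and only DBP (-0.94) lies below TIMELESS (-0.74).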

How the data were processed

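The authors' deposited values are RPKM; featureCounts and GRCh38 are named in the submitters' processing notes. For versions, aligner, annotation and strand setting, none is given in the sources used here. Libraries were stranded, per the labels' protocols. That the length is the gene span was read from the values: GENCODE v29 spans turned 99.97% of values under 1000 reads into whole reads (within 0.02). The members and lists were chosen with earlier results of these data known. Named genes are the 10 members and, of each further list, at most 3 genes with the smallest p in the average over lines and 2 in a single line; their calls in a line against that average and the clock gene NR1D1 in OVCAR8 were added after the values were seen.

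Genes whose mean in the line was 0.5 RPKM or more (in each line for contrasts over lines) were tested on log2(RPKM + 0.1) with limma 3.58.1 (R 4.3.3, eBayes with trend, two-sided, Benjamini-Hochberg, threshold 0.05), per line, or over all 24 libraries for contrasts over lines. Fold changes of low genes are understated on this scale. The fits were checked on simulated data. Recovered reads (mean of 1 CPM or more in each line) were tested with limma-voom. A gene among those most like TIMELESS across libraries is not reported here.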

Additional observations from a re-analysis of the deposited data

Results flagged for a closer look

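The day 5 effect of EPZ015666 differed between the 4 lines by limma's moderated F test for 6 of the 7 members tested, with 72.3% of all tested genes also called. F was 21.5 for TIMELESS, which was lower in every line by different amounts. It was 18.9 for TOPBP1 and 6.02 for CLSPN, both changed most in OVCAR8, and 8.11 for HUS1, changed most in COV362. It was 15.8 for WEE1, higher in OVCAR8 and lower in COV362, and 11.2 for ATRIP, higher in BT549 and COV362. Groups of 2 libraries are too small for a test of one library against its group; the pair of libraries high in ribosomal RNA is described with the results.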

How the results depend on the processing

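Over 188 results and 3654 alternative values, 3404 stayed on the same side of the threshold or within the set range and 0 reversed. A reversal was a change of sign with a call in either fit, so it could not arise for F tests or for counts. A change of sign with no call in either fit was counted as the same. TIMELESS kept its call in all 6 line comparisons and in the average over lines. The planned edgeR test was run as limma-voom.

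Members called, 2 in BT549 at day 3 as reported, became 1 with no filter, 1 with only the libraries compared, 6 with 1 fit over all 24 libraries and 5 with limma-voom. COV362 went from 5 of 8 tested to 10 of 10 with limma-voom, which called 4298 genes higher and 4522 lower of 12483. MDAMB436 went from 2 of 9 to 4 of 10 with limma-voom, which called 2790 genes higher and 3039 lower of 12040. In BT549 at day 3 limma-voom called 1461 genes higher and 1541 lower of 11749. All member counts here are to be read against those of all genes, given further below. The average over lines went from 6 to 3, and the DMSO difference between lines from 7 to 4, with a minimum of 1 RPKM, alone or with a pseudocount of 1. At that minimum ATRIP, CHEK1 and HUS1 were no longer tested, with a mean under 1 RPKM in at least 1 line. For the change between days, BT549 went from 0 to 3 with all 24 libraries (TIMELESS 0.26, adjusted p = 0.00167) and 1 with limma-voom. OVCAR8 went from 0 to 1 with each of these (TIMELESS -0.20, adjusted p = 0.0208 and 0.0246). The vehicle time course went from 3 to 1 in BT549 with only the libraries compared (TIMELESS -0.25, adjusted p = 0.0805) and from 4 to 7 in OVCAR8 with limma-voom. Inhibitor cultures went from 0 to 1 in BT549 with all 24 libraries and from 4 to 0 in OVCAR8 with only the libraries compared (TIMELESS -0.40, adjusted p = 0.0578). The cause of the other changes in these counts was not tested.

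Leaving out each library in turn gave 3 to 6 members in BT549 at day 5, 1 to 3 at day 3, 3 to 5 in OVCAR8 at day 3, 3 to 5 in COV362 and 1 in MDAMB436. The vehicle time course gave 0 to 3 in BT549 (TIMELESS -0.27 to -0.23) and 2 to 4 in OVCAR8 (TIMELESS -0.21 to -0.19), and the OVCAR8 inhibitor cultures 1 to 4.

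The labels do not say whether a replicate letter marks a shared culture or batch. A minus B correlated between vehicle and inhibitor groups at -0.134 to 0.0684, which cannot decide it. With the letter as a replicate block, MDAMB436 went from 2 members to 1 (HUS1, adjusted p = 0.0574). CLSPN in BT549 at day 5 (0.057) and CHEK1 in OVCAR8 at day 5 (0.0502) and day 3 (0.0545) also missed the threshold.

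All genes called, 3125 in BT549 and 4463 in OVCAR8 at day 5, 1499 and 2835 at day 3, 5545 in COV362, 3032 in MDAMB436 and 4567 in the average, became 5019, 6953, 3002, 4793, 8820, 5829 and 7537 with limma-voom, which tested more genes. BT549 at day 3 gave 509 with only the libraries compared and 2872 with all 24, MDAMB436 1973 with the replicate block, and the average 8887 with no filter. The vehicle time course, 1167 in BT549 and 2726 in OVCAR8, became 2436 and 4621 with limma-voom, and in BT549 429 with only the libraries compared, 2524 with all 24 and 696 with the block. Inhibitor cultures, 55 and 1195, became 521 and 2721 with limma-voom, 0 and 649 with the block and 1 and 0 with only the libraries compared, and BT549 658 with all 24. The change between days, 342 and 389, became 1236 and 1942 with limma-voom, 64 and 0 with the block, 1656 and 695 with all 24 and 114 and 91 with no filter. The differences between lines, 4654 in effect and 6299 in DMSO, became 7943 and 10617 with limma-voom and 8963 and 13909 with no filter. Leaving out 1 library gave 1600 to 3420 in BT549 at day 5, 664 to 1197 at day 3, 1558 to 2686 in OVCAR8 at day 3 and 1108 to 2318 in MDAMB436. It gave 0 to 469 and 0 to 3 for the change between days, 85 to 1140 and 1130 to 2646 for the vehicle time course, and 0 to 47 and 176 to 997 for inhibitor cultures. Depth ran from 228 reads for HUS1 to 8123 for TIMELESS.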
